A study of Mus musculus with 447 samples.

Results

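Of 447 single cells of this series, 26.2% were glucagon-only cells, picked by their hormone transcripts alone: 41 and 62 in the 2 genotypes of set 2, and 13 and 1 in those of set 3, beside 330 other cells. A cell belonged to them when Gcg, which encodes proglucagon, stood at 10000 CPM or more (a cell's counts scaled to a common total, spike-ins left out), Ins1 and Ins2 together under 100 CPM, and Ppy, Sst and Ghrl each under 1000 CPM. These 6 hormone genes chose the cells, so their levels are given below as a description only. The cells were GFP-positive cells sorted from mouse fetal pancreas at stage E15.5 and read by Smart-seq3, a full-length method with 1 cell per well. The labels give 2 genotypes, Pdx1CreNeurod1OE (here Neurod1OE) and Pdx1CreNgn3KONeurod1OE (here Ngn3KO). Both carry the Pdx1-driven Cre and the overexpressed NeuroD1, which the series' design text describes as tamoxifen-inducible (Pdx1CreER), and the Ngn3KO label adds a Neurog3 knockout, by floxed alleles in the design text. Neurog3 does not check that label: it stood at 5.87 CPM in the glucagon-only and 2.88 CPM in the other Neurod1OE cells of set 2, and at 4.34 and 2.53 CPM in those labelled Ngn3KO, and which part of the gene is removed is not given. Wild-type cells were not analysed here, so no level without added NeuroD1 is given. The sample titles carry a set number, 2 or 3, whose meaning is not given, and each genotype within a set counted as 1 sample because no animal or litter is named. No test between groups was therefore possible, and the differences below are sizes in these libraries without replicate error.

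Alpha cells are the glucagon-secreting cells of the islet and the first hormone cells to appear in the fetal mouse pancreas. Among the factors they carry are Irx1, Irx2, Isl1 and Pax6, and the convertase Pcsk2 cuts proglucagon into glucagon. NeuroD1 is a basic helix-loop-helix factor that acts downstream of Neurog3 in endocrine differentiation and binds E-box sequences together with E proteins.

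The promoters of 3 of the genes that mark the cells are shown because NeuroD1 is the factor added in both genotypes. Each line holds the 250 bases before the RefSeq start on build GRCm38.p6, 5′ to 3′ along the gene, and capitals mark CAGATG or its reverse complement CATCTG, one form of the E-box.
Gcg (chr2:62483654-62483903, minus strand): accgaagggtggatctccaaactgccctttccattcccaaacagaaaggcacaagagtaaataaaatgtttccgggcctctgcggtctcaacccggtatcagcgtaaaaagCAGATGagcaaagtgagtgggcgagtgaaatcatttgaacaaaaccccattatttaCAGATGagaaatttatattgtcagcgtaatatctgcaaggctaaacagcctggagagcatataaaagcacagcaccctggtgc
Irx2 (chr13:72628570-72628819, plus strand): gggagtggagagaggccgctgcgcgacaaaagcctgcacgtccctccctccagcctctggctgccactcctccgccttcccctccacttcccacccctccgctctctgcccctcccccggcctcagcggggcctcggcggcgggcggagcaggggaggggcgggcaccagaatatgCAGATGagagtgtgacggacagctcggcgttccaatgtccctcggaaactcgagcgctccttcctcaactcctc
Pcsk2 (chr2:143545883-143546132, plus strand): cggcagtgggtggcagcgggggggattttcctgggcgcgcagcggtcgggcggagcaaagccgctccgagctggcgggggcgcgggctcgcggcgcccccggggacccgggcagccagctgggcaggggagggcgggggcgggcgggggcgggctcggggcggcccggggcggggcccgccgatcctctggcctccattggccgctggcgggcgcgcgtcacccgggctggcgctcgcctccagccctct
The Gcg window held 2 copies, the nearer one starting 83 bases before the start site, and the Irx2 window held 1, starting 74 bases before it. These letters were not in the windows of Pcsk2, Slc38a5, Wnk3 or Calcr (2 windows), so 2 of the 6 genes searched held them. Among 32851 promoters of the RefSeq table, 14.4% held at least 1 copy in the same window and 1.32% held 2 or more. The wider E-box CANNTG was found 3 times before Gcg and once each before Irx2 and Pcsk2, and 66.2% of promoters held it. A match is a description of the letters and no evidence of binding.

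The share of glucagon-only cells differed widely between the libraries. They were 41 Neurod1OE cells of set 2, beside 76 others (35.04%, 95% exact Clopper-Pearson interval 26.5 to 44.4%), 62 Ngn3KO cells of set 2 (30.2%, 24.04 to 37.03%), 13 of 95 Neurod1OE cells of set 3 (13.7%, 7.49 to 22.3%) and 1 of 30 Ngn3KO cells of set 3 (3.33%, 0.0844 to 17.2%). Intervals cover counting error only. Of all 290 cells with 10000 CPM of Gcg or more, 40.3% were glucagon-only, with 48.8% in Neurod1OE and 35.2% in Ngn3KO of set 2. These shares follow the hormone limits: with 200 CPM for insulin and 2000 CPM for the other hormones, 100 instead of 62 Ngn3KO cells of set 2 were glucagon-only. Of the cells left out, 90 missed by insulin alone, 26 by Ppy, 18 by Ghrl, none by Sst, and 39 by more than 1 hormone. A further 58 cells had an intermediate Gcg level of 1000 to 10000 CPM, and 99 stood under 1000 CPM, of which 63 were Neurod1OE cells and 29 Ngn3KO cells of set 3. The surroundings of the glucagon-only cells were thus other glucagon cells in set 2 and mostly cells without glucagon in set 3.

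**Figure D1:**
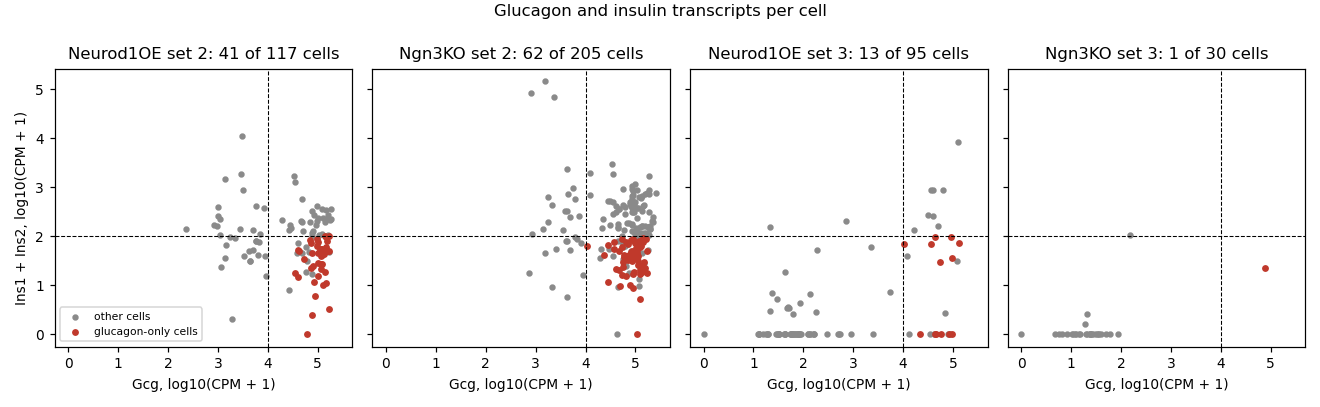
Each point is 1 cell, with Gcg on the x axis and the sum of Ins1 and Ins2 on the y axis, both as log10(CPM + 1), and dashed lines at the limits of 10000 and 100 CPM. Red points are the 41, 62, 13 and 1 glucagon-only cells, and grey points to the right of the line and below it missed by Ppy or Ghrl.

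Glucagon took up a large part of the messenger RNA of these cells. In Neurod1OE cells of set 2 the lowest, median and highest Gcg level was 35371, 111621 and 169566 CPM, in Ngn3KO cells of set 2 it was 10577, 89631 and 169565 CPM, and in Neurod1OE cells of set 3 it was 10241, 55051 and 133108 CPM. The ranges overlapped in all 3 groups, and Gcg made up 10.4%, 9.53% and 6.83% of the summed reads. At the limits, the lowest glucagon-only cells had 10241 and 10577 CPM of Gcg and the nearest cell outside had 9198 CPM, while insulin stood at 99.6 CPM in the highest member and 100 CPM in the nearest cell outside, so the insulin limit cuts through closely spaced cells. For Ppy the nearest values were 985 and 1127 CPM, for Ghrl 772 and 1023 CPM, and Sst reached 263 CPM at most in a member.

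The cells carried the markers of the alpha label. All but 1 of the cells had Irx2, Pcsk2 and Ttr at 10 CPM or more in the same cell. Of the 18 genes of the alpha list, 16 had a median over the cells of 50 CPM or more in each of the 3 larger groups. That count includes Gcg, which the rule used. The other cells had 16 such genes in both genotypes of set 2 as well, and 10 in Neurod1OE set 3. Gcg lies on chromosome 2 (62474530 to 62483650, build GRCm38), Pcsk2 on chromosome 2 (143546156 to 143816285), Irx2 on chromosome 13 (72628820 to 72634198) and Ttr on chromosome 18 (20665280 to 20674321). Per kilobase of exon, the summed level in Neurod1OE cells of set 2 was 95358 CPM for Gcg, 7524 for Ttr, which encodes the thyroxine carrier transthyretin, 4426 for the glutamine transporter Slc38a5, 533 for Pcsk2, 117.2 for Irx1 and 97.04 for Irx2. Of the other hormones, Iapp, which encodes amylin, had 3159 and Pyy, the peptide YY gene, had 11038 CPM per kilobase. The rule thus leaves peptide YY in place, in this group at a level per kilobase above Ttr. Without scaling by length, Ttr was above Pyy in the 3 larger groups. The sums were 8924, 7854.5 and 50548 CPM for Ttr and 6899, 7047.5 and 11708 CPM for Pyy, with Neurod1OE set 3 last. Lists of other cell types differed in level. All 7 endothelial genes and, in set 2, all 7 erythroid genes had a median of 0, as had 10 of 11 mesenchymal genes, 16 of 19 acinar genes in set 2 and 13 of 19 in set 3. The mesenchymal exception was the collagen gene Col1a2, with a summed level of 204.8 CPM in Neurod1OE and 124.8 CPM in Ngn3KO of set 2. The duct and trunk list summed to a median of 1429, 1328 and 1284 CPM per cell in the 3 larger groups, with 3 of its 15 genes at a median of 50 CPM or more, the epithelial keratin genes Krt8 (cell medians of 607, 582 and 565 CPM), Krt7 (483, 534 and 498 CPM) and Krt18. The delta list summed to a median of 1351, 1809 and 3247 CPM with 5 of 6 genes at a median of 0, the remaining one being Rbp4, the retinol-binding protein gene. Of the 9 hepatic genes, 0, 0 and 2 had a median of 50 CPM or more.

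Against the other cells of the same library, the alpha programme set glucagon-only cells apart in set 3 and hardly in set 2. For each side the reads of its cells were added up, and a gene was called at a 2-fold ratio of CPM after adding 1 CPM. Of 10187 measured genes 9.57% were called in Neurod1OE set 2, 2.45% as higher in the glucagon-only cells and 7.12% as lower. Of 9921 in Ngn3KO set 2 it was 5.27%, split into 1.66% and 3.61%, and of 10768 in Neurod1OE set 3 it was 32.3%, split into 10.6% and 21.6%. Of the 18 alpha genes, 1 was higher and 1 lower in Neurod1OE set 2 (median log2 ratio 0.24, all genes -0.09), none was called in Ngn3KO set 2 (median 0.03, all genes -0.02), and 12 were higher and 1 lower in Neurod1OE set 3 (median 1.39, all genes -0.16). Without Gcg, which the rule used (a count chosen after seeing the data), none of 17 was higher in Neurod1OE set 2 (median 0.20), and 11 of 17 were higher in Neurod1OE set 3 (median 1.33). The called genes in Neurod1OE set 2 were Gcg and Gc, the vitamin D binding protein, at a log2 ratio of -1.82. The pan-endocrine list of 16 granule and secretory genes had no called gene in either genotype of set 2 and 9 higher genes in set 3.

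Ttr stood at 922, 9877 and 29019 CPM (lowest, median, highest cell) in the glucagon-only cells of Neurod1OE set 2 and at 386, 3903 and 26327 CPM in the other cells, a log2 ratio of 0.83 of the sums. In Ngn3KO set 2 the medians were 7082 and 3995 CPM, but the log2 ratio of the sums was 0.06, and the highest other cell reached 51030 CPM. The Gm12338 groups described below went opposite ways there, at 0.63 among positive and -0.79 among negative cells. Among these negative cells the medians were 8236 CPM in the 45 glucagon-only and 13102 CPM in the 52 other cells. The positive cells were 17 glucagon-only and 91 other cells, with medians of 3619 and 2111 CPM. In Neurod1OE set 2 the ratio was 0.50 in both Gm12338 groups. In Neurod1OE set 3 the cells had 5808, 36520 and 121155 CPM against a median of 4496 CPM in the others, a log2 ratio of 2.15. The ranges overlapped in every library.

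Pcsk2 had reads in every glucagon-only cell. Its median was 2551 CPM against 2120 in the other cells of Neurod1OE set 2, 2297 against 2029 in Ngn3KO set 2, and 3061 against 165.4 in Neurod1OE set 3, with log2 ratios of the sums of 0.40, 0.30 and 1.72. Irx2, an Iroquois factor of the alpha lineage, had summed levels of 254.7, 258.4 and 243.9 CPM in the 3 groups, against 151.8, 214.4 and 80.8 in the other cells. Its log2 ratios were 0.74, 0.27 and 1.58. Isl1, a LIM homeodomain factor, had -0.14, 0.21 and 0.76, and Slc38a5 0.45, 0.14 and 1.22.

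**Figure D2:**
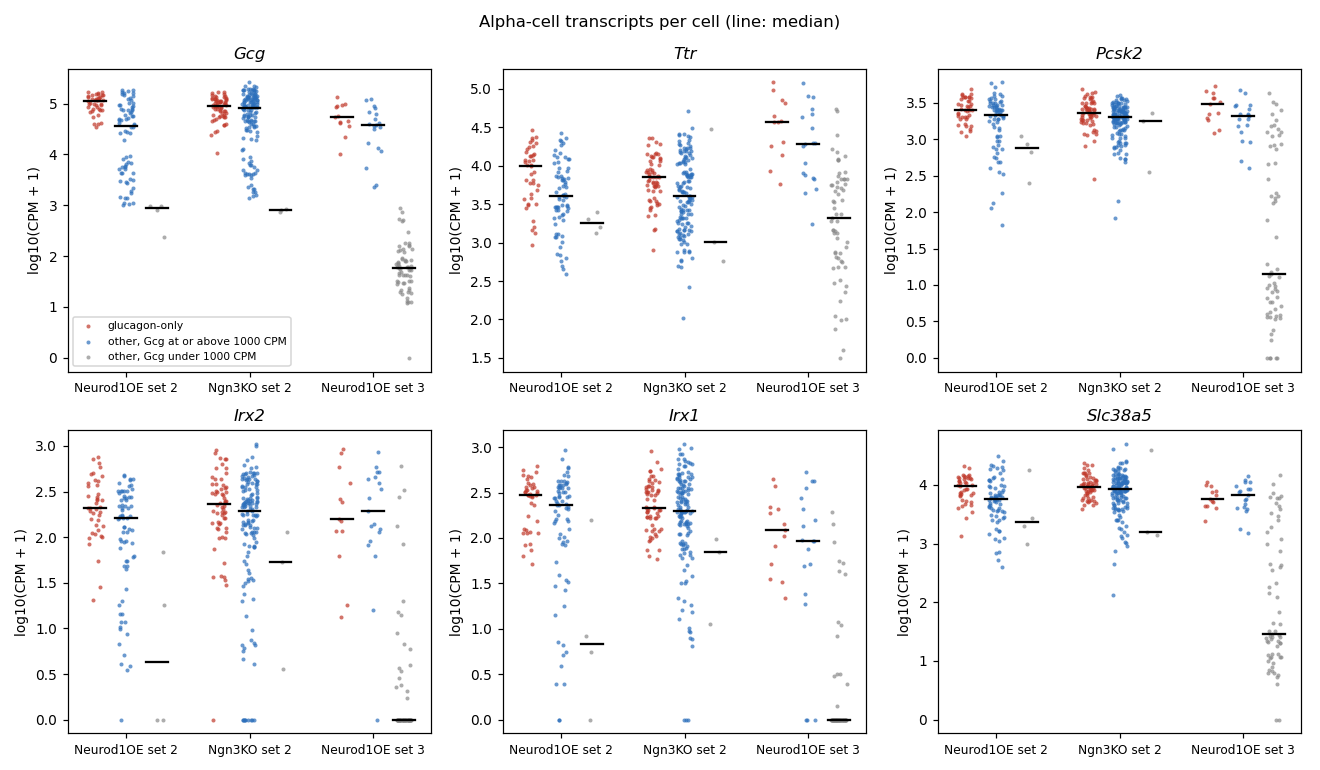
Levels of 6 alpha genes per cell as log10(CPM + 1) for the glucagon-only cells, other cells with 1000 CPM of Gcg or more, and other cells under 1000 CPM, with medians as lines. The glucagon-only and other glucagon cells lie at similar heights for Irx2, Irx1 and Slc38a5, and the cells under 1000 CPM of Gcg lie below them in set 3.

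Set beside the other glucagon cells of set 3 only, the alpha genes lost most of their difference. Against the 19 other cells with 1000 CPM of Gcg or more, the log2 ratio of the sums was -0.13 for Irx2, -0.54 for Irx1, -0.26 for Slc38a5, 0.26 for Pcsk2 and 0.59 for Ttr. The median Pcsk2 level was 3061 CPM in the 13 glucagon-only cells and 2098 CPM in those 19 cells. The summed Irx2 level was 243.9 CPM in the first and 267.2 CPM in the second. The granule genes Cpe and Chga, which encode carboxypeptidase E and chromogranin A, differed by 0.20 and -0.10.

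Acinar genes were mostly lower in glucagon-only cells, with the fewest called in Ngn3KO set 2. Duct and trunk genes were mostly lower in both Neurod1OE sets but not in Ngn3KO set 2. Of the acinar list, 7 of 8 measured genes were lower in Neurod1OE set 2, 3 of 5 in Ngn3KO set 2 and 13 of 13 in Neurod1OE set 3, with median log2 ratios of -2.35, -1.10 and -5.20. Cpa1, the carboxypeptidase of acinar and early tip cells, stood at 41.4 CPM against 158.3 in Neurod1OE set 2 (log2 ratio -1.91, and -0.87 without the highest cell of each side) and at 26.96 against 1485 in Neurod1OE set 3. Among the Gm12338-positive cells of Neurod1OE set 2 described below, the Cpa1 ratio was 0.43 and the acinar median 0.29. The duct and trunk list had 8 of 13 genes lower in Neurod1OE set 2, 1 of 8 in Ngn3KO set 2 and 9 of 13 in Neurod1OE set 3. Its median log2 ratios were -1.20, 0.07 and -2.39, and Krt7 was higher in Neurod1OE set 3, at 1.20. Of all measured genes, 7.12%, 3.61% and 21.6% were lower in these 3 comparisons. Sox9, a factor of the progenitor epithelium, was at 9.89 against 53.8 CPM, 16.3 against 33.1 CPM and 4.72 against 142.2 CPM. Neurog3 was low in glucagon-only cells of set 2, with sums of 5.87 CPM from 10 of 41 Neurod1OE cells and 4.34 CPM from 10 of 62 Ngn3KO cells, and stood at 0.363 CPM against 20.1 in the other cells of Neurod1OE set 3. In that comparison 7 of 10 endocrine progenitor genes were lower, among them the Notch ligand Dll1 at -1.59, and all 12 cycling genes were lower (median -5.48).

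Neurod1 itself did not mark the glucagon-only cells. Its median was 293 CPM against 291 in the other cells of Neurod1OE set 2, 232 against 221 in Ngn3KO set 2 and 207 against 170 in Neurod1OE set 3, with log2 ratios of the sums of 0.41, 0.08 and -0.12. Every glucagon-only cell had Neurod1 reads. The counts do not tell the added from the endogenous transcript.

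A few genes differed in the same direction in all 3 libraries. Of 9308 genes measured in all 3, 3 were at least 2-fold higher each time (Calcr, Dzip1 and 4632404H12Rik, the last 2 of which lay outside the rule for named genes) and 45 were lower, among them hormone genes of the rule. Without the highest cell of each side, each of the 3 fell under 2-fold in at least 1 library: Calcr to 0.90 in Ngn3KO set 2, Dzip1 to 0.81 there and 0.99 in Neurod1OE set 3, and 4632404H12Rik to -0.09 in Neurod1OE set 3. Calcr, the calcitonin receptor gene on chromosome 6 (3685680 to 3764714), had log2 ratios of 1.53, 1.09 and 1.94. It was sparse: 27 of 41, 33 of 62 and 6 of 13 glucagon-only cells had a read, with medians of 21.1, 8.33 and 0 CPM and highest cells of 486, 877 and 272 CPM. Among Gm12338-positive cells of Neurod1OE set 2 its level was 113.4 CPM in glucagon-only and 4.20 CPM in other cells, but among negative cells the log2 ratio was 0.05. In set 3 Calcr differed by -0.02 from the other glucagon cells. Among the other classes of set 2 it was lowest in cells of intermediate glucagon, with 2.95 CPM for Neurod1OE and 5.13 CPM for Ngn3KO. Glucagon cells with insulin had 67.6 and 46.75 CPM, nearer to the 80 and 80.7 CPM of the glucagon-only cells. Those with more than 1 other hormone had 35.2 and 56.3 CPM, and those with Ppy 13.3 and 42.9 CPM. Calcr was thus not particular to the glucagon-only cells.

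Nnat, an imprinted gene whose product acts at the endoplasmic reticulum of beta cells, was lower in all 3 libraries, with log2 ratios of -3.23, -4.40 and -3.40. Its summed level was 22.9 CPM against 223 in Neurod1OE set 2, 96.9 against 2066 in Ngn3KO set 2 and 32.3 against 349 in Neurod1OE set 3. The high values sat outside the strong glucagon cells: of the set 2 cells, those of intermediate glucagon had 512 CPM (Neurod1OE) and 8357 CPM (Ngn3KO), while Ngn3KO glucagon cells with insulin had 95.2 CPM, near the glucagon-only value. Among Gm12338-negative Ngn3KO cells the Nnat ratio had the other sign, at 0.88. Pyy, expressed by early glucagon cells and pancreatic polypeptide cells, was also lower in set 2, at -1.68 in Neurod1OE and -1.04 in Ngn3KO, with 1025, 5230 and 19884 CPM (lowest, median, highest) in the Neurod1OE and 225, 5043 and 34443 CPM in the Ngn3KO glucagon-only cells. Cells of intermediate glucagon had 25889 and 31577 CPM of Pyy. Among the Gm12338-positive cells the Pyy log2 ratios were -2.04 in Neurod1OE and -1.25 in Ngn3KO, and among the negative cells -0.22 and 0.14. The cell medians of the negative Neurod1OE cells were 5230.5 CPM in glucagon-only and 5246 CPM in other cells. In Neurod1OE set 3 the ratio was 0.73, and 0.32 without the highest cell of each side.

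**Figure D3:**
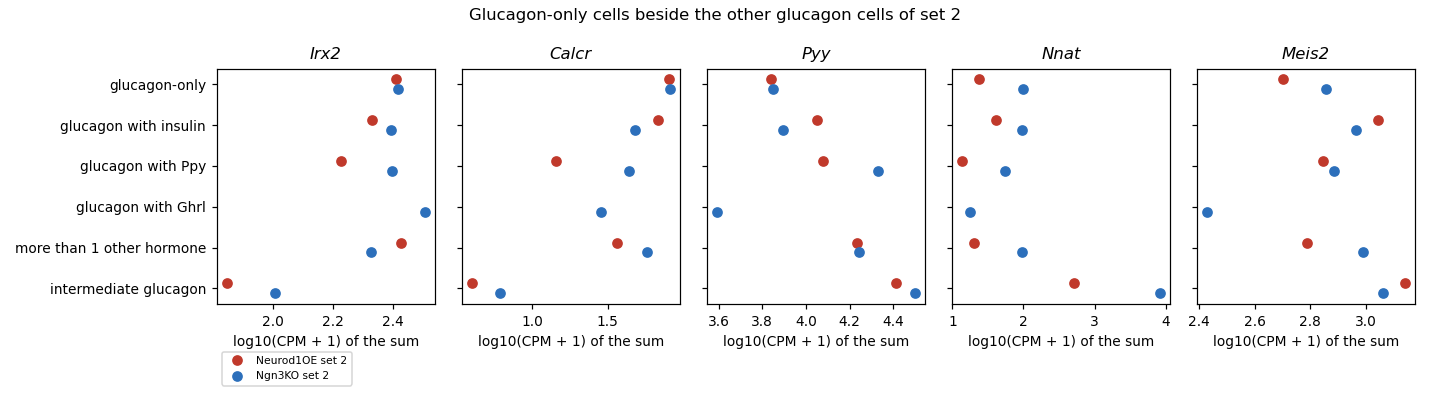
Summed level of 5 genes as log10(CPM + 1) in glucagon-only cells and the other classes of glucagon cells in set 2, with Neurod1OE in red and Ngn3KO in blue. Cells of intermediate glucagon have the lowest Irx2 and Calcr and the highest Pyy and Nnat, and the class with Ghrl has no Neurod1OE value because it held 2 cells.

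Cells of intermediate glucagon in set 2 had lower levels of several alpha genes than the glucagon-only cells. They had 69.1 and 100.6 CPM of Irx2 in Neurod1OE and Ngn3KO, against 255 and 258 CPM, and 3303 and 5303 CPM of Slc38a5, against 9839 and 11057 CPM. Glucagon cells with insulin, by contrast, had 212 and 245 CPM of Irx2, and 2430 and 2067 CPM of Pcsk2 against 2517 and 2407. Meis2, a homeodomain factor, was at 503 CPM in the glucagon-only cells of Neurod1OE set 2, 1103 CPM in those with insulin and 1387 CPM in cells of intermediate glucagon. In Ngn3KO the 3 levels were 720, 921 and 1155 CPM.

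Within set 2 the glucagon-only cells themselves fell into a pair of groups that largely follow the title numbers and that reads of the predicted gene Gm12338 separate (at least 10 CPM, here positive, or less). In Neurod1OE, 11 of 51 positive cells were glucagon-only (21.6%, 11.3 to 35.3%) against 30 of 66 negative cells (45.5%, 33.1 to 58.2%). In Ngn3KO these were 17 positive cells (15.7%, 9.45 to 24%) and 45 of 97 negative cells (46.4%, 36.2 to 56.8%). By Xist and Y-linked reads, 9 of the 11 positive Neurod1OE cells were male and none female, while 28 of the 30 negative ones were female and none male. Sex and Gm12338 group therefore cannot be told apart in Neurod1OE, whereas the Ngn3KO groups had 12 and 42 female cells and no male cell. What Gm12338 status stands for is not given in the labels.

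Ttr and the granule gene Pcsk1n, which encodes the convertase inhibitor proSAAS, were lower in Gm12338-positive glucagon-only cells of both genotypes in set 2. In Neurod1OE, Ttr stood at 922, 2800 and 11089 CPM (lowest, median, highest) in the 11 positive cells and at 3196, 11802 and 29019 CPM in the 30 negative cells. In Ngn3KO it stood at 788, 3619 and 12507 CPM in the 17 positive and 2204, 8236 and 23214 CPM in the 45 negative cells. The log2 ratios of the sums were -1.90 and -1.19, and for Pcsk1n -1.90 and -1.42. The ranges overlapped for both genes.

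Irx2, Pcsk2 and Gcg differed less between the Gm12338 groups of set 2. Irx2 had log2 ratios of 0.09 and -0.09, Pcsk2 -0.62 and -0.24, and Gcg 0.16 and 0.50. Of all measured genes, 31.3% were at least 2-fold apart in Neurod1OE and 24.9% in Ngn3KO. Of 9348 genes measured in both genotypes, 396 (4.24%) were higher in positive cells of both, 351 (3.75%) lower in both, and 2.09% went opposite ways. Cell-cycle genes led those higher in both, among them Mki67 (5.98 and 3.42) and Top2a (5.63 and 2.07), and 3 of 11 and 6 of 17 positive cells were cycling against 1 of 30 and 5 of 45 negative cells. Gpr119, a lipid receptor of islet and gut endocrine cells, was lower in both (-3.64 and -1.15), and so was the peptide gene Cck (-1.80 and -3.20). These genes were chosen after their values were seen.

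**Figure D4:**
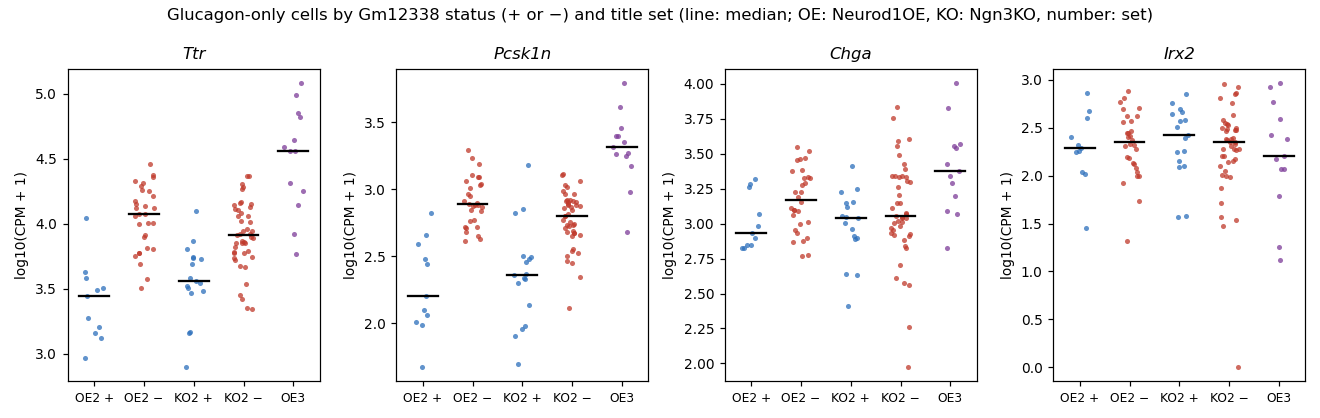
Levels per glucagon-only cell as log10(CPM + 1), with Neurod1OE (OE2) and Ngn3KO (KO2) cells of set 2 split by Gm12338 reads (+ or −), beside Neurod1OE cells of set 3 (OE3), and medians as lines. Ttr and Pcsk1n are lowest in the positive cells of set 2 and highest in set 3, where positive and negative cells are pooled. The Irx2 medians as drawn lie close together.

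Cycling glucagon-only cells, with Mki67 or Top2a at 50 CPM or more, kept the alpha genes. They were 4 of 41 in Neurod1OE set 2 (9.76%), 11 of 62 in Ngn3KO set 2 (17.7%), 0 of 13 in Neurod1OE set 3 (where 3 cells would be 23.1%, and the exact upper bound is 24.7%) and the single Ngn3KO cell of set 3. Among other cells the share was 17.1%, 18.2% and 24.4% in the 3 larger groups. In set 2 the median Gcg level was 90762 CPM in the 15 cycling and 99813 CPM in the 88 remaining glucagon-only cells, Irx2 was 236 and 213 CPM, and Pcsk2 2020 and 2526 CPM. All ranges overlapped. Cdkn1a, the gene of the cell-cycle inhibitor p21, had a higher median in the cycling cells, 115.7 against 32.5 CPM. Median depth was 429639 and 421682 reads.

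Between title sets, glucagon-only cells of Neurod1OE differed in several secreted-protein genes and in the cell cycle. Set 3 against set 2 had 12.4% of 10270 measured genes higher and 14.5% lower (26.9% in all, median log2 ratio of all genes -0.03), with 13 cells on 1 side. The 13 cells held 3 female and 9 male cells, and the 41 held 28 and 9. Gm12338-positive were 9 of the 13 and 11 of the 41, so set, sex and Gm12338 make-up differ together and cannot be told apart. Ttr was higher by 2.50 on the log2 scale, with 5808 to 121155 CPM in set 3 and 922 to 29019 CPM in set 2, and the median in set 3 lay above the highest cell of set 2. Genes of the hepatic list, which does not hold Ttr, went the same way, with 5 of 6 measured genes higher (median 2.74). Apoa1, the apolipoprotein A-I gene, was at 192.6 against 5.98 CPM, and Fgb, a fibrinogen chain, at 252 against 23.5 CPM. Afp, the alpha-fetoprotein gene, was at 104.1 against 12.7 CPM, and Serpina1a, an antitrypsin gene, at 241 against 40.6 CPM. Apoa1 reads came from 7 of 13 cells. The other higher gene, Apoa2, had 1.51, and 0.25 without the highest cell of each side.

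Erythroid transcripts moved with the set. Hbb-y, an embryonic globin gene, had no reads in glucagon-only or other cells of set 2 and 88.2 CPM in the glucagon-only cells of Neurod1OE set 3, and the other cells of that set had 95.1 CPM. The summed level of the 7 erythroid genes ranged from 0 to 655 CPM (median 69.96) in these 13 cells and from 0 to 26.7 CPM (median 0) in the 41 cells of set 2, with 5 and 7 genes at a median of 0. Their part in the difference of the secreted-protein genes was not tested. Alb, the albumin gene, was at 0.484 CPM in the glucagon-only and 37.9 CPM in the other cells of Neurod1OE set 3.

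Of the list of other peptide genes 5 of 16 were higher in set 3 and 1 lower (median 0.67), the lower one being Gast, the gastrin gene, at -1.21 (-2.23 without the highest cell of each side), and Iapp had -0.95. Gal, the galanin gene, was at 516 against 43.6 CPM (log2 ratio 3.54, and 2.13 without the highest cell of each side), with reads in 10 of 13 and 31 of 41 cells. Cartpt was at 866 against 75.9 CPM (3.50) and Pnoc at 71.1 against 5.75 CPM (3.42), the latter from 5 of 13 cells. Pnoc is not on that list. Of the 16 pan-endocrine genes 2 were higher, a share (12.5%) near that of all genes, namely Pcsk1n at 2.12 and Resp18 at 1.61, and none lower (median 0.58). Pcsk1n ranged from 476 to 6217 CPM around a median of 2067 in the 13 cells, and from 46.2 to 1950 CPM around a median of 692 in the 41 cells. The median in set 3 was above every cell of set 2.

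Alpha factors were mostly level between sets, with 4 genes of the alpha list higher, 1 lower and a median of -0.14. Among the higher ones were Ttr, Gc and Dpp10, of which Dpp10 had 0.56 without the highest cell of each side, and the lower one was Irx1. Irx1 had 133.6 against 278 CPM (-1.05). Lmx1b, a LIM homeodomain factor, was higher (66.8 against 13.2 CPM), at a log2 ratio of 2.25. Of the beta list 6 of 12 measured genes were lower, 1 was higher and the median was -1.03, beside 14.5% and 12.4% of all genes. Among the lower ones were Nkx6-1 (7.98 against 31.2 CPM), Slc30a8, the granule zinc transporter gene (50.9 against 154.8 CPM), and G6pc2 (21.9 against 89.6 CPM), while the neuropeptide gene Npy was higher at 12.7 against 1.06 CPM, from 2 of 13 and 5 of 41 cells, Nnat had a ratio of 0.48 and Ins1, which the rule used, 0.86. All 12 cycling genes were lower in set 3 (median -4.68), where no glucagon-only cell was cycling: Mki67 was at 1.45 against 89.6 CPM and Top2a at 2.18 against 140.7 CPM. Without cycling cells the Mki67 ratio was 0.31.

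The glucagon-only cells of the 2 genotypes in set 2 differed by less than 2-fold in every alpha gene. Ngn3KO against Neurod1OE had 8.29% of 9900 measured genes called, 3.8% as higher and 4.49% as lower, the all-gene median was -0.02, and the same 41 Neurod1OE cells serve as the reference here and in the set comparison. No alpha and no pan-endocrine gene was called, with medians of 0.00 and 0.00. Pcsk2 had a log2 ratio of -0.07, Irx2 0.02, Ttr -0.18, Gcg -0.12 and Neurod1 -0.38. Afp was higher in Ngn3KO at 95.3 against 12.7 CPM (2.81), with reads in 32 of 62 and 16 of 41 cells. Nnat was higher at 96.9 against 22.9 CPM (2.04) and Meis1 at 65.3 against 18.4 CPM (1.77). The replication genes Gins2 (-1.56), Mcm5 (-1.13) and Pcna (-1.33) were lower, while the cell-cycle genes Cenpa (1.80) and Ccnb2 (1.56) were higher. Of the 12 cycling genes 3 were lower and 0 higher (median -0.315). Gins2 had 0.20 among Gm12338-negative cells, and Mcm5 had 0.042 with hormone limits of 200 and 2000 CPM. Cycling were 4 of the 41 Neurod1OE and 11 of the 62 Ngn3KO cells. The share of Gm12338-positive cells was 11 of 41 and 17 of 62, and median depth was 583803 and 366571 reads.

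**Figure D5:**
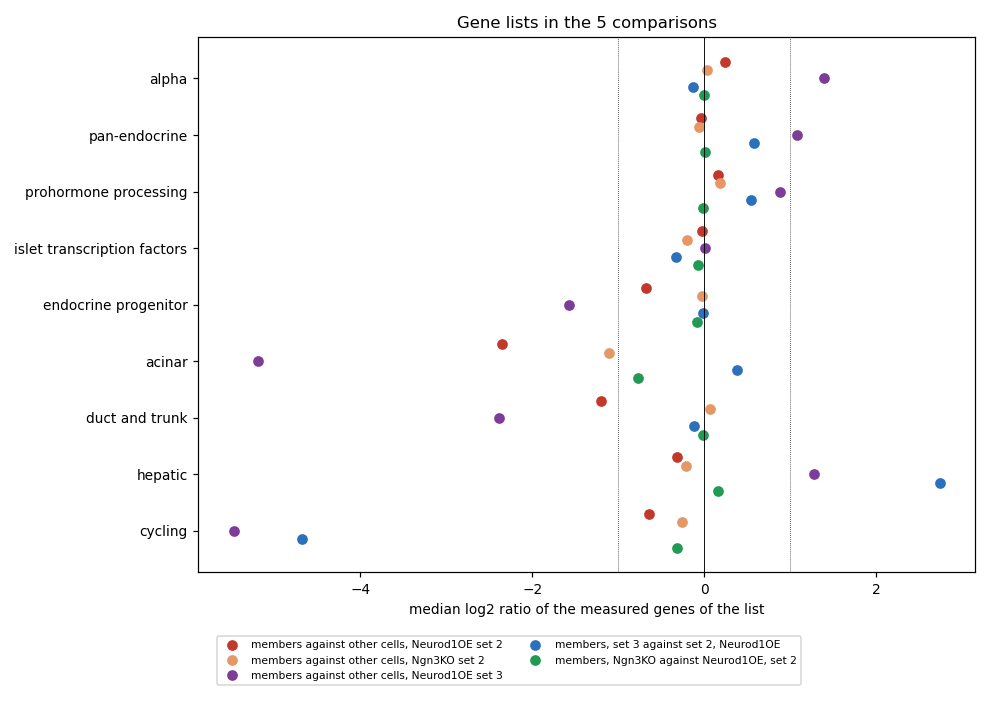
Median log2 ratio of the measured genes of 9 lists in the 5 comparisons, where members are the glucagon-only cells and dotted lines mark 2-fold. Alpha and pan-endocrine medians are highest against the other cells of set 3 (1.39 and 1.08), the set comparison (blue) has a pan-endocrine median of 0.58 and the highest hepatic median (2.74), and both comparisons with set 3 cells have cycling medians under -4.

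The 1 glucagon-only Ngn3KO cell of set 3 stood among cells with little glucagon. It had 76153 CPM of Gcg, 17028 of Ttr, 1376 of Pcsk2, 483 of Irx2, 448 of Irx1 and 465 of Calcr. In the other 29 cells the highest Gcg value was 151.4 CPM, the highest Pcsk2 value 9.67 CPM, and no cell had a read of Irx1 or Calcr. Their Cpa1 median was 10085 CPM, and this cell had 70.6 CPM. Its Mki67 level was 379 CPM. It is a single cell and entered no ratio.

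The variation of Gcg among glucagon-only cells was not closely followed by any gene. Over 2974 well-detected genes, the highest mean Spearman correlation with Gcg across cells, taken within each of the 3 larger groups (41, 62 and 13 cells), was 0.33 for Celf4, an RNA-binding protein gene, followed by Hjurp, Pccb, Elp5 and Rfwd2. Pcsk2 had 0.15, Ttr 0.08 and Irx2 0.03. These values are weak, the levels within a cell share its depth, and they are given as a description.

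Depth and gene number did not set the cells apart by much. Median totals were 583803, 366571 and 624957 reads in the glucagon-only cells of Neurod1OE set 2, Ngn3KO set 2 and Neurod1OE set 3, against 562308, 337152 and 697196 in the other cells. Thinned to 100000 reads, the glucagon-only cells had a median of 6796, 6778 and 7173 detected genes and the others 6461, 6354 and 6637, with 0, 2 and 2 shallower glucagon-only and 0, 5 and 5 shallower other cells left out, against unthinned medians of 8271, 7691 and 8472 and of 7907, 7370 and 7972. No pair of cells had identical counts.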

How the data were processed

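Smart-seq3 RNA was read from 447 single cells, each a sample of the series. The authors deposited raw read counts per gene and cell as whole numbers. Trimmomatic 0.39, HISAT2 2.1.0, featureCounts 2.0.0 and the build mm10 are listed per the submitters' processing notes; the annotation, strand setting, use of molecule barcodes and cell filters are not given in the sources used here. Totals per cell were 25769 to 2788066 reads over 40824 gene rows, with 92 ERCC spike-ins left out. No further cell filter and no doublet caller was used, since each well held 1 sorted cell.

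Members and gene lists were chosen with earlier results of these data known. Counts were summed over cells within each genotype and set, scaled to CPM, and compared as log2 ratios after adding 1 CPM. A gene was measured with 10 CPM or more and reads in at least 10% of cells on 1 side, and called at 2-fold. At least 10 cells a side were required. No test was run, as each group is 1 sample. The ratio was tested on simulated data. Named genes were the hormones, Pyy, Neurod1, Neurog3, the alpha list, leading genes of each comparison that stayed 2-fold without the highest cell, and up to 4 genes per list with the highest density or largest ratio; others (Dzip1, 4632404H12Rik, Lmx1b, Fgb, Sox9, Dusp1, Cacna1c, Cacna1d, and Cck and the other genes of the Gm12338 comparison) were chosen after their values were seen, as were the comparisons by Gm12338 and by cycling. Intervals are exact Clopper-Pearson intervals at 95%. Python 3.11.15 (numpy 2.4.6, pandas 2.3.3, scipy 1.17.1, matplotlib 3.10.9) was used. Other scaling factors came from edgeR 4.0.16 (TMM) and DESeq2 1.42.0 in R 4.3.3. Promoter sequences are from RefSeq on GRCm38.p6 and gene positions from the reference annotation of GRCm38, in which 89.2% of gene symbols were found. Other scalings, filters, hormone limits, thinning and cell subsets were tried. Some genes of the lists are counted but not reported here by name.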

Additional observations from a re-analysis of the deposited data

Results flagged for a closer look

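Several cell-cycle and regulatory genes differed from the other cells at least 2-fold in opposite directions in 2 groups of glucagon-only cells. These differences between groups were not tested. Meis1, a homeodomain factor gene, had log2 ratios within set 2 of -1.26 (Neurod1OE) and 1.10 (Ngn3KO). Lonrf2 had 1.57 in Neurod1OE set 2, -1.41 in Ngn3KO set 2 and -1.68 in Neurod1OE set 3. The replication gene Gins2 had 1.63 in Neurod1OE set 2 and -1.87 in Neurod1OE set 3. Pcna, the replication clamp gene, had 1.04 in Neurod1OE set 2, -1.01 in Ngn3KO set 2 and -1.04 in Neurod1OE set 3. Among Gm12338-negative cells of Neurod1OE set 2 the Pcna ratio was -0.54, and without the highest cell of each side it was 0.44.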

How the results depend on the processing

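The counts of genes at least 2-fold apart depended on the filters. In the order Neurod1OE set 2, Ngn3KO set 2 and Neurod1OE set 3 against other cells, then set 3 against set 2, then Ngn3KO against Neurod1OE, they were 975, 523, 3473, 2763 and 821. Without the low-value filter they were 2822, 1914, 6415, 5465 and 2616, and with a pseudocount of 10 CPM 320, 94, 2093, 1422 and 200. With hormone limits of 50 and 500 CPM, 18, 35 and 7 cells remained glucagon-only in the first 3 groups, and the counts were 1550, 854 and, between genotypes, 1952. With limits of 200 and 2000 CPM, Ngn3KO set 2 held 100 such cells and the genotype count was 472. Among Gm12338-positive cells the counts were 2653, 1736 and, between genotypes, 2968, and among negative Ngn3KO cells 838. Fewer cells entered each of these sums.

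Some directions reversed. In Neurod1OE set 2, Cpa1 (0.43), Syt4 (-0.64) and the acinar median (0.29) did so among Gm12338-positive cells, and Junb (0.76) and Pcna (-0.54) among negative cells. In Ngn3KO set 2, Nnat (0.88), Pyy (0.14) and Ogt (0.17) did so among negative cells. Against other cells of Neurod1OE set 3 with 1000 CPM of Gcg or more, Irx2 (-0.13), Irx1 (-0.54), Slc38a5 (-0.26), Calcr (-0.015) and Cartpt (-0.068) reversed. Set 3 against set 2, Mki67 reversed without cycling cells (0.31), and between genotypes Mcm5 with the wider limits (0.042) and Gins2 (0.20) and Gmnn (2.40) among negative cells. The cause was not tested. TMM and DESeq2 scaling reversed none of the values computed. In Neurod1OE set 3 they moved the median of all genes from -0.16 to -0.06 and 0.00, and the share of higher among called genes from 32.9% to 39.6% and 42.9%. Not run for fewer than 10 cells were the stricter hormone limits in both set 3 comparisons, male cells there, and female cells between sets.

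No paired analysis was possible because the numbers in the titles name single cells. A fit was not possible with 1 sample a group, so no replicate was left out. Depth limits sparse genes such as Calcr and Neurog3.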

Other observations

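Immediate early genes, which respond to stimulation and to cell handling, were lower in the glucagon-only than in the other cells of Neurod1OE set 2 for 4 of 7 measured genes (median log2 ratio -1.10), beside 7.12% of all genes (median -0.09): Jun at 57.6 against 161.7 CPM, Junb at 73.8 against 231.5 CPM, Ier2 and Dusp1. In Ngn3KO set 2 1 of 7 was lower, the heat shock gene Hspa1b, beside 3.61% of all genes, and in Neurod1OE set 3 2 of 6, Jun and Ier2, beside 21.6%. Junb had the other sign among Gm12338-negative cells of Neurod1OE, at 0.76. Of 15 genes of the unfolded protein response, 1, 0 and 1 were lower in the 3 comparisons and none higher, with medians of -0.30, -0.29 and -0.29.

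Of the receptors, channels and glucose-sensing genes measured, 1 of 13 was higher in Neurod1OE set 2 and none lower, beside 2.45% and 7.12% of all genes. In Ngn3KO set 2, 1 of 15 was higher and 2 lower, beside 1.66% and 3.61% of all genes. In Neurod1OE set 3, 3 of 14 were higher and 3 lower, where 10.6% and 21.6% of all genes were, so that the share of lower genes was that of all genes. The set 2 counts are of 1 or 2 genes. In set 3 the higher genes were the lipid receptor gene Gpr119 and the calcium channel genes Cacna1c and Cacna1d, of which Gpr119 had a log2 ratio of 0.87 without the highest cell of each side. Slc2a2, the gene of the beta-cell glucose transporter GLUT2, had no reads in the glucagon-only cells of Neurod1OE in either set.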
